A study of Homo sapiens with 22 samples.

Results

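JHOC9, an established human cell line of ovarian clear cell carcinoma, was given a virus to knock down SPINK1. The RNA of these cells was set against that of cells given the NT control virus. The comparison holds 8 of the 22 arrays of the series, 3 titled JHOC9 SPINK1 KD #9 (replicates a, b and c) and 5 titled JHOC9 NT (control), and was chosen by those titles. All cells were plated in 35 mm dishes and infected with a lentivirus, so the control carries a virus too, and JHOC9 was grown in 20% fetal bovine serum. The NT arrays come from Experiments A to E, with replicate letters a to e, while the knockdown titles give a letter only and name no separate cultures. P-values therefore rest on array-to-array spread alone, part or all of which may be technical. SPINK1 was targeted by 1 virus, so an effect on SPINK1 and any other effect of that virus cannot be told apart. The series also has 3 JHOC9 arrays with an IL-6 knockdown virus, and the same 3 kinds of virus in JHOC5, a second clear cell carcinoma line, grown in 10% serum.

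SPINK1 encodes a small secreted inhibitor of trypsin, made by the pancreas to hold back trypsin that is activated too early. Many tumours also make it, and there it has been described as a growth factor-like signal that acts through the EGF receptor. A knockdown lentivirus lowers the messenger RNA of its target by RNA interference, which can also lower other messengers that match the short seed of the interfering RNA.

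Log2 signal was read for 65526 transcript clusters, each a set of probes that stands for a transcribed region. The files give these clusters by ID and do not pair the IDs with genes. The cluster of SPINK1, a gene of chromosome 5 in RefSeq, was therefore not found here, and neither its level nor markers of the line were analysed. Clusters are described below as groups, and 4 of them by ID with the value on every array. The median log2 signal lay between 4.80 and 4.94 on the JHOC9 NT arrays and between 4.81 and 4.92 on the SPINK1 knockdown arrays. Knockdown replicate c and NT replicate d had the highest medians of their groups. The typical SD of a cluster was 0.108 within NT and 0.109 within the knockdown, as medians over clusters. Precision is limited by how few arrays each group has.

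The first question was which transcripts the SPINK1 virus changed in JHOC9. Among the clusters that passed, falls outnumbered rises, and the changes were small. With limma on all 22 arrays, 55 clusters, or 0.0839% of those tested, passed a Benjamini-Hochberg adjusted p of 0.05. Of these, 46 were lower with the SPINK1 virus than with NT (0.0702%) and 9 were higher (0.0137%). The falls ranged from -1.02 to -0.23 on the log2 scale, with a median of -0.47, and the rises from 0.28 to 0.58, with a median of 0.38. Only 1 fall reached 2-fold, 13 falls reached 1.5-fold, and no rise did. Over all clusters the median change was -0.0034, and 97.3% of clusters had a change under 0.25 in size. Before adjustment, 4.95% of clusters had a limma p under 0.05, where 5% would pass if nothing changed. Of these 3243 clusters, 1502 were lower and 1741 higher, so the excess of falls was not seen at that cutoff. At 0.001 the share was 0.363%, where 0.1% would pass, and 159 of these 238 clusters were lower.

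**Figure D1:**
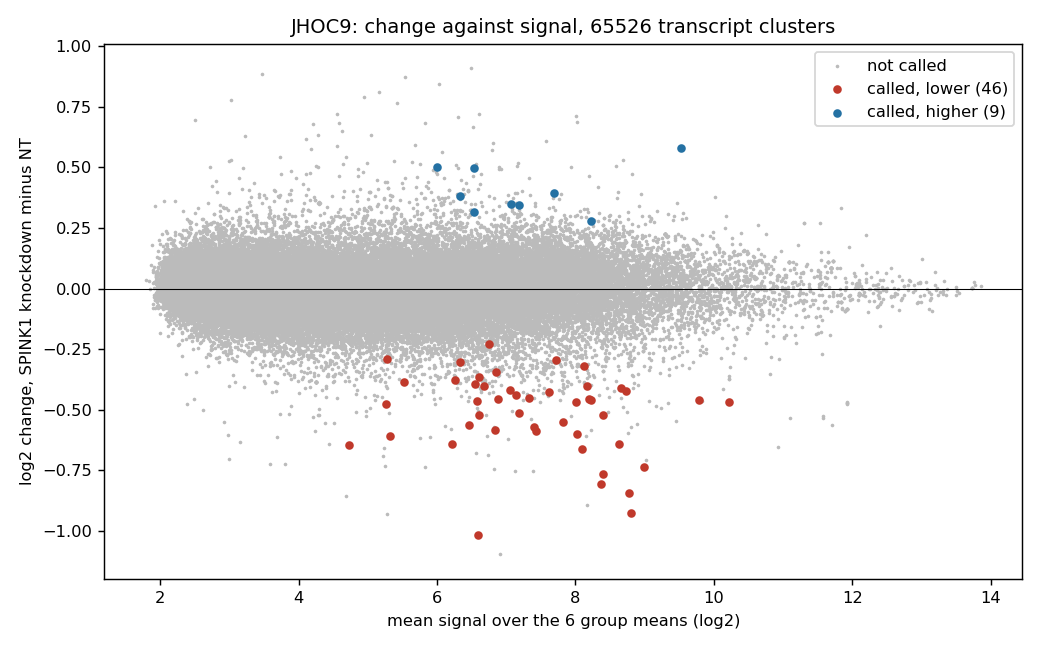
Change with the SPINK1 virus in JHOC9 (log2, knockdown minus NT, vertical) against the mean log2 signal over the 6 groups (horizontal) for 65526 transcript clusters. Grey points did not pass the test, and the 46 lower clusters (red) and 9 higher clusters (blue) lie at medium to high signal.

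A block for the replicate letter compares knockdown and NT arrays of the same letter, and with it 120 clusters passed (0.183%), 92 lower and 28 higher. The fits shared 41 clusters in the same direction, the block lost 14 of the 55, and 79 passed with the block alone. The 92 falls had a median change of -0.45 in the fit without the block, and all had a negative difference in each of the 3 same-lettered pairs, which the test itself favours. Leaving out knockdown replicate a took the count of 55 to 25, and leaving out replicate b took it to 27. Leaving out NT replicate a, b or e took it to 36, 34 or 35. Without knockdown replicate c, 44 clusters passed and 23 of them were higher, so the excess of falls was not seen there. With arrays centred on their median signal, 13 clusters passed, all of them lower.

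Among the 46 called falls, the largest in size was that of TC04001745.hg.1, whose ID carries the code of chromosome 4. Its log2 signal on NT arrays a to e was 6.75, 6.85, 7.21, 6.93 and 7.45, and on knockdown arrays a, b and c 6.06, 6.01 and 5.998. All 3 knockdown arrays lay below all 5 NT arrays, with a gap of 0.69 between the ranges. The mean fell from 7.04 ± 0.29 (SD, n = 5) to 6.02 ± 0.03 (SD, n = 3), a log2 change of -1.02 ± 0.13 (SE) or 2.02-fold lower, with a limma adjusted p of 8.39e-04. The NT arrays spread widely while the knockdown arrays nearly coincided. On the IL-6 knockdown arrays of JHOC9 the signal was 6.84, 7.30 and 7.31, inside the NT range. In JHOC5 it was 6.99 ± 0.14 (SD, n = 5) with NT, 5.45 ± 0.10 (SD, n = 3) with the SPINK1 virus and 6.93 ± 0.07 (SD, n = 3) with the IL-6 virus. The low values were thus on the 6 SPINK1 virus arrays of both lines. With JHOC9 arrays alone in the fit, its limma adjusted p was 0.0624, with an SE of 0.15.

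TC19000416.hg.1, with the code of chromosome 19, had the next largest called fall. NT arrays a to e read 10.22, 10.38, 10.28, 10.33 and 10.35, and knockdown arrays a, b and c read 9.32, 9.57 and 9.27. The groups were 0.65 apart at their nearest arrays. The log2 change was -0.93 ± 0.09 (SE), 1.90-fold lower, with a limma adjusted p of 1.61e-05 and of 5.18e-05 with the replicate block. The IL-6 knockdown arrays of JHOC9 read 10.25, 10.23 and 10.20, close to the low end of NT. In JHOC5 the level was lower at the start, 8.04 ± 0.15 (SD, n = 5) with NT, and went to 6.35 ± 0.05 (SD, n = 3) with the SPINK1 virus, against 8.46 ± 0.19 (SD, n = 3) with the IL-6 virus. The JHOC5 change of -1.70 ± 0.09 was larger than that of JHOC9 by 0.77 ± 0.12 (SE), with a limma adjusted p of 0.00145 for the difference. This call held in all 26 alternative settings, which include the stricter thresholds.

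Among the 9 called rises, the largest was that of TC20000928.hg.1, with the code of chromosome 20. NT arrays a to e read 9.61, 9.75, 9.61, 9.57 and 9.66, and knockdown arrays a, b and c read 10.37, 10.24 and 10.04. The knockdown arrays all lay above NT, with 0.29 between the ranges. The log2 change was 0.58 ± 0.09 (SE), 1.49-fold higher, with a limma adjusted p of 0.0134. Arrays with the IL-6 virus read 9.90, 9.77 and 10.25 in JHOC9, also above every NT array, and they overlapped the SPINK1 knockdown arrays. In JHOC5 the NT arrays lay between 8.66 and 8.71, the SPINK1 knockdown arrays between 9.11 and 9.40 and the IL-6 knockdown arrays between 9.25 and 9.54. This cluster was thus above NT on all 12 knockdown arrays of the series. Its JHOC9 call did not survive 11 of 26 alternative settings, where the limma adjusted p reached 0.368. Among these were the fits without knockdown replicate a (0.172) and without knockdown replicate b (0.0935). The limma adjusted p was 0.0896 with only the compared groups fitted and 0.159 with JHOC9 arrays alone. Leaving aside the stricter thresholds, which do not alter the p-value, the call was lost in 9 of 24 settings.

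The next largest called rise was that of TC15002759.hg.1, with the code of chromosome 15. NT arrays a to e read 7.03, 7.10, 6.91, 6.78 and 6.91, and knockdown arrays a, b and c read 7.68, 7.48 and 7.18. The groups did not overlap, but knockdown replicate c lay only 0.078 above the highest NT array. The log2 change was 0.50 ± 0.09 (SE), 1.41-fold higher, with a limma adjusted p of 0.0289. On the IL-6 knockdown arrays of JHOC9 the signal was 6.82, 6.80 and 6.82, within the NT range. In JHOC5 the signal of this cluster was lower than in JHOC9, at 4.89 ± 0.04 (SD, n = 5) with NT and 4.93 ± 0.11 (SD, n = 3) with the SPINK1 virus, where its change did not pass (limma adjusted p of 0.873). The difference between the lines, 0.46 ± 0.13 (SE), did not pass either, with a limma adjusted p of 0.0874. Its JHOC9 call did not survive 15 of 26 alternative settings, where the limma adjusted p reached 0.394. Among these were the fits without NT replicate c (0.0741), d (0.0570) or e (0.0778) and without knockdown replicate a (0.289) or b (0.191). The limma adjusted p was 0.391 with only the compared groups fitted and 0.281 with JHOC9 arrays alone. Leaving aside the stricter thresholds, the call was lost in 13 of 24 settings.

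**Figure D2:**
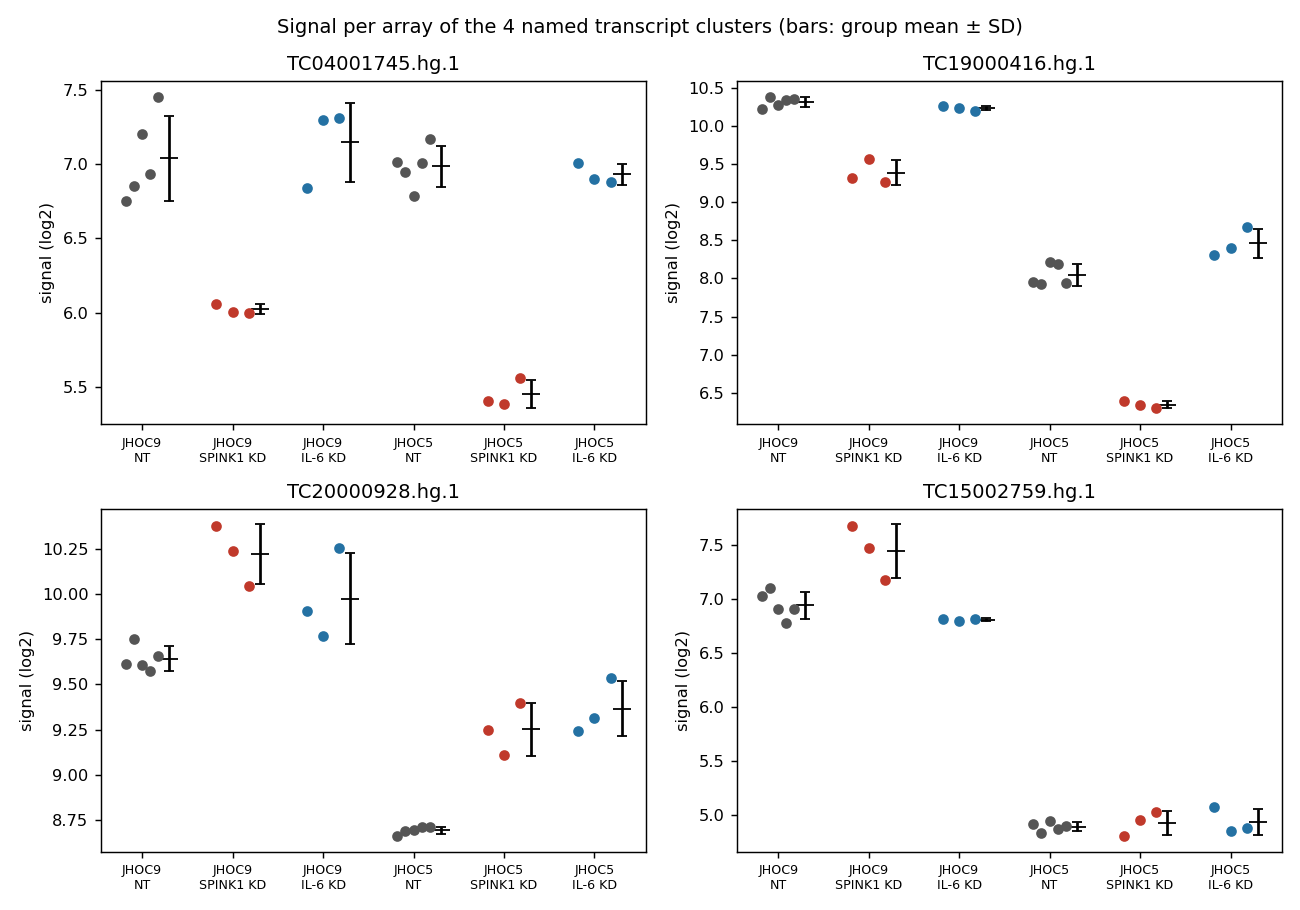
Log2 signal (vertical) of the 4 clusters named in the text on each of the 22 arrays, by line and virus (horizontal), with group mean ± SD beside the points. Signals of the 2 falls are low on the SPINK1 knockdown arrays of both lines, TC20000928.hg.1 is above NT on all knockdown arrays, and TC15002759.hg.1 is high on the JHOC9 SPINK1 knockdown arrays.

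The 55 clusters had high array signal in the control. By mean NT signal, 52 lay in the highest tertile of clusters, 3 in the middle tertile and 0 in the lowest. Probe affinity sets signal as well as RNA amount does, so these tertiles do not rank expression. Their median NT signal was 7.26, against 4.87 over all clusters. They also had a smaller error, with a median SE of 0.074 against 0.086 over all clusters, which favours a call. None had the same values as another cluster on all arrays, although 1034 clusters of the array repeat another. On all 55, the 3 knockdown arrays lay outside the NT range, which was so for 3.6% of all clusters. Called clusters were chosen for differing, so this separation describes them and is no further evidence.

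By the chromosome code in the ID, the 55 calls were spread over 21 codes. Chromosome 3 had the most calls, 6 of 3365 clusters (0.178%). Chromosome 13 had the highest share, 0.292%, with 5 falls and no rise among 1715 clusters. With the replicate block chromosome 1 had the most, 12 of 6342 clusters (0.189%, against 0.183% over all codes), and chromosome 13 again the highest share, 0.350%. Differences between chromosomes were not tested. Chromosome 5, which holds SPINK1, had 3 falls and no rise among 3418 clusters. That is 0.0878%, near the 0.0839% over all codes, so the count shows nothing particular to this chromosome. Whether the cluster of SPINK1 was one of these was not tested.

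Large changes without a call were more even in direction. Among clusters that did not pass, 29 were at least 1.5-fold lower and 27 at least 1.5-fold higher, with sizes of up to 1.10 and 0.91 on the log2 scale. Their median SE was 0.210 and 0.233, against 0.0855 for the 13 called falls of that size. The knockdown arrays lay outside the NT range for 15 of the 29 lower and 5 of the 27 higher clusters. Of all 65526 clusters, 1206 had them below that range and 1151 above it. With the replicate block, 13 of the 29 and 7 of the 27 passed, where 0.183% of all clusters did. These clusters were chosen for their size in the same arrays, which favours all these counts.

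The replicates were then compared through same-lettered arrays. Their deviations from the group means correlated over clusters at 0.43, 0.32 and 0.20 for letters a, b and c. Knockdown replicate c correlated more with NT replicate d, at 0.435, so pair c is uncertain. For the 46 falls, the median difference between knockdown and NT array was -0.46, -0.50 and -0.55 in pairs a, b and c, against -0.012, 0.012 and 0.057 over all clusters. For the 9 rises it was 0.43, 0.33 and 0.27. Every one of the 46 was negative and every one of the 9 positive in all 3 pairs, as their choice from these arrays favours. The falls thus had about the same size in each pair, while the rises were largest in pair a.

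**Figure D3:**
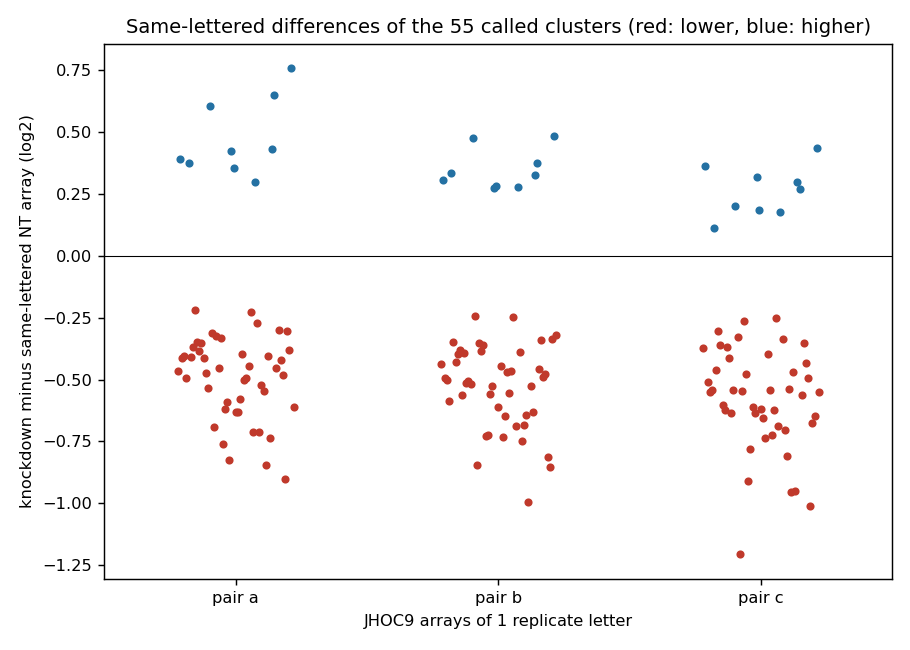
Difference between the SPINK1 knockdown array and the NT array of the same letter in JHOC9 (log2, vertical) in pairs a, b and c (horizontal) for the 55 called clusters, 1 point each. The 46 falls (red) are below 0 and the 9 rises (blue) above 0 in all 3 pairs.

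Across all 65526 clusters the pairs had little in common. The differences of pairs a and b correlated at r = 0.11, those of b and c at 0.10 and those of a and c at -0.02, given as a description, since clusters are not independent replicates. No array enters more than 1 pair. In JHOC5, the pairs of the same virus correlated at 0.48, 0.48 and 0.64. Pair c of JHOC9 correlated at 0.33 and 0.29 with pairs d and e of JHOC5, above its values within its own line. This was not particular to pair c. Pair b correlated at 0.20, 0.17 and 0.17 with pairs c, d and e of JHOC5, also above its values within JHOC9. Pair a had 0.12, 0.07 and 0.13 with them, against 0.11 and -0.02 within JHOC9. The share of all clusters lower on the knockdown array was 36.2% in pair c, 53.5% in pair a and 46.0% in pair b. The part of the array medians in these values was not tested.

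Each pair was also left out in turn, so that clusters could be called without it and then read in it. Without pair a, 13 clusters passed, all lower, and all 13 were lower in pair a, with a median difference of -0.69 there and a median change of -0.74 in the fit. Without pair b, 11 clusters passed, all lower, and all 11 were lower in pair b, with a median of -0.73. Without pair c, 17 were lower and 18 higher. Of the 17, 16 were lower in pair c, with a median of -0.70 against -0.60 in the fit. Of the 18 rises, 17 were positive in pair c, but their median there was 0.20 against 0.64 in the fit, while pair c had a median of 0.057 over all clusters. These 13, 11 and 17 falls therefore had about the same size in the pair left out of their fit. The rises found without pair c were smaller in it. Over all clusters, 53.5%, 46.0% and 36.2% were negative in pairs a, b and c. Leaving out pairs was chosen after seeing the data. The left-out pair was normalized together with the other arrays.

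The next question was how the JHOC9 changes compared with those of the same virus in JHOC5, where no array is shared. Of the 46 falls, 43 also passed as falls in JHOC5, where 3.86% of all clusters did, and of the 9 rises, 6 also passed as rises, where 2.68% did. The median JHOC5 change of the 46 falls was -0.93, with -0.84, -0.96 and -0.95 as medians on JHOC5 knockdown arrays c, d and e against the JHOC5 NT mean. For the 9 rises it was 0.42, against 0.05 over all clusters. The JHOC5 change had the same sign and the larger size for 39 of the 46 falls and 5 of the 9 rises. It had the opposite sign for 2 falls and 1 rise. Over all 65526 clusters, 23264 had the same sign and the larger size in JHOC5, and 30368 had the opposite sign. The count of 49 shared calls was 90 with the replicate block. Leaving out JHOC9 NT replicate a or b took it to 32 or 29, and leaving out knockdown replicate a, b or c took it to 23, 24 or 26.

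Because 1 spread per cluster served both lines, the overlap was also taken from a separate fit for each line. JHOC9 alone then gave 19 calls (0.029%), all lower, of which 16 were among the 55. Of these 19, 17 were among the 2358 falls called from JHOC5 alone (3.6%). That fit for JHOC9 called no rise.

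**Figure D4:**
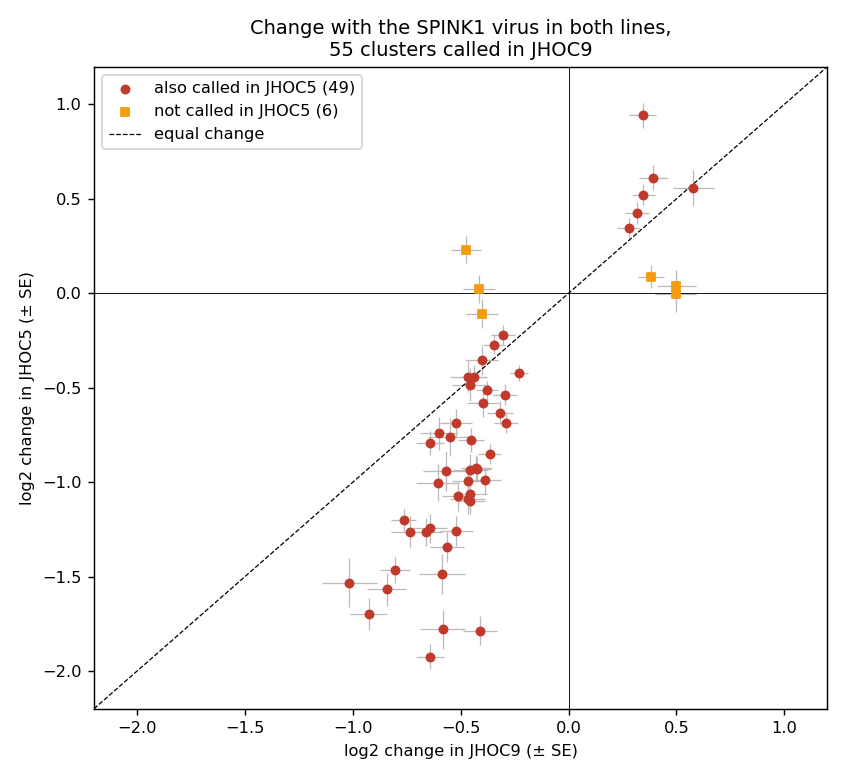
Log2 change with the SPINK1 virus in JHOC5 (vertical) against that in JHOC9 (horizontal), each ± SE, for the 55 clusters called in JHOC9. The 49 clusters also called in JHOC5 (red) lie mostly below the line of equal change among the falls, and 6 clusters (orange squares) were not called in JHOC5.

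The change differed between the lines for 27 of the 55 clusters, 26 falls and 1 rise, where 1.24% of all clusters passed that test. In 25 of the 27 the JHOC5 change was the larger, as it was for 806 of the 813 clusters with such a difference on the whole array, so this direction is not particular to the clusters called in JHOC9. The JHOC9 arrays that chose the clusters enter this test as well. The count was 48 with the replicate block, 16 without JHOC9 NT replicate b and 15 without knockdown replicate a.

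The comparison was also read the other way, from clusters chosen by their JHOC5 change. These were called in the joint fit of both lines, so the JHOC9 arrays entered the spread behind each call. Among the 269 clusters that fell at least 2-fold in JHOC5, 260 had a negative change in JHOC9 (96.7%, against 51.9% of all clusters), and 19 passed there. Their median change was -1.25 in JHOC5 and -0.29 in JHOC9. In each JHOC9 pair they moved alike: 259, 257 and 257 of the 269 were negative in pairs a, b and c, with medians of -0.32, -0.33 and -0.38. The 19 clusters that rose at least 2-fold in JHOC5 had a median change of 1.23 there and 0.25 in JHOC9, where 17 were positive and 0 passed the limma test after adjustment, although 9 had an unadjusted p under 0.05. Their medians in pairs a, b and c were 0.39, 0.24 and 0.06. Over all 2531 falls of JHOC5, 82.1% had a negative change in JHOC9, with a median of -0.09. Over all 1753 rises, 81.9% had a positive change with a median of 0.08, where 31543 of all 65526 clusters were positive. An unadjusted limma p under 0.05 with the same sign was found for 622 of these falls and 366 of these rises. Clusters that passed in JHOC5 thus mostly had the same sign in JHOC9, but only 43 falls and 6 rises were called there.

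The IL-6 knockdown arrays of JHOC9 show the same clusters under another virus. They share the NT arrays with the SPINK1 comparison, so only their levels are given. For the 46 falls the median difference from the NT mean was -0.44, -0.43 and -0.55 on SPINK1 knockdown arrays a, b and c, and -0.13, -0.08 and -0.12 on IL-6 knockdown arrays b, d and e. Over all clusters the medians on these IL-6 knockdown arrays were 0.05, 0.01 and 0.02. The IL-6 knockdown arrays all lay below the NT range for 11 of the 46, where 2.59% of all clusters did, and the falls were chosen against these same NT arrays. All 3 SPINK1 knockdown arrays lay below all 3 IL-6 knockdown arrays for 42 of the 46, where 8.5% of all clusters did. For the 9 rises the medians were 0.41, 0.37 and 0.30 on the SPINK1 knockdown arrays and 0.03, 0.02 and -0.04 on the IL-6 knockdown arrays. The IL-6 knockdown arrays all lay above the NT range for 3 of the 9, where 3.61% of all clusters did. The SPINK1 knockdown arrays lay above all IL-6 knockdown arrays for 6 of the 9, where 6.98% of all clusters did. The SPINK1 knockdown arrays chose these clusters, so the counts are a description. In JHOC5 the 46 falls had medians of -0.14, -0.08 and -0.02 on IL-6 knockdown arrays a, b and c, and the 9 rises had medians of 0.20, 0.19 and 0.21.

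The calls were followed one by one through 24 other ways to process or select the arrays, leaving aside the stricter thresholds. Of the 55 clusters, 7 kept their call in all 24, and all 7 were falls. With each of the 8 arrays left out in turn, 19 kept it every time, again all falls, and 18 of these 19 were called in the same direction in JHOC5. No rise kept its call through all single arrays left out. The median cluster lost its call in 11 of the 24 settings. Array weights gave 2948 calls, 1419 higher and 1529 lower, among them all 55 in the same direction. These weights counted knockdown replicate b far above the others, at 6.46, with replicate a at 0.594 and replicate c at 0.419.

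**Figure D5:**
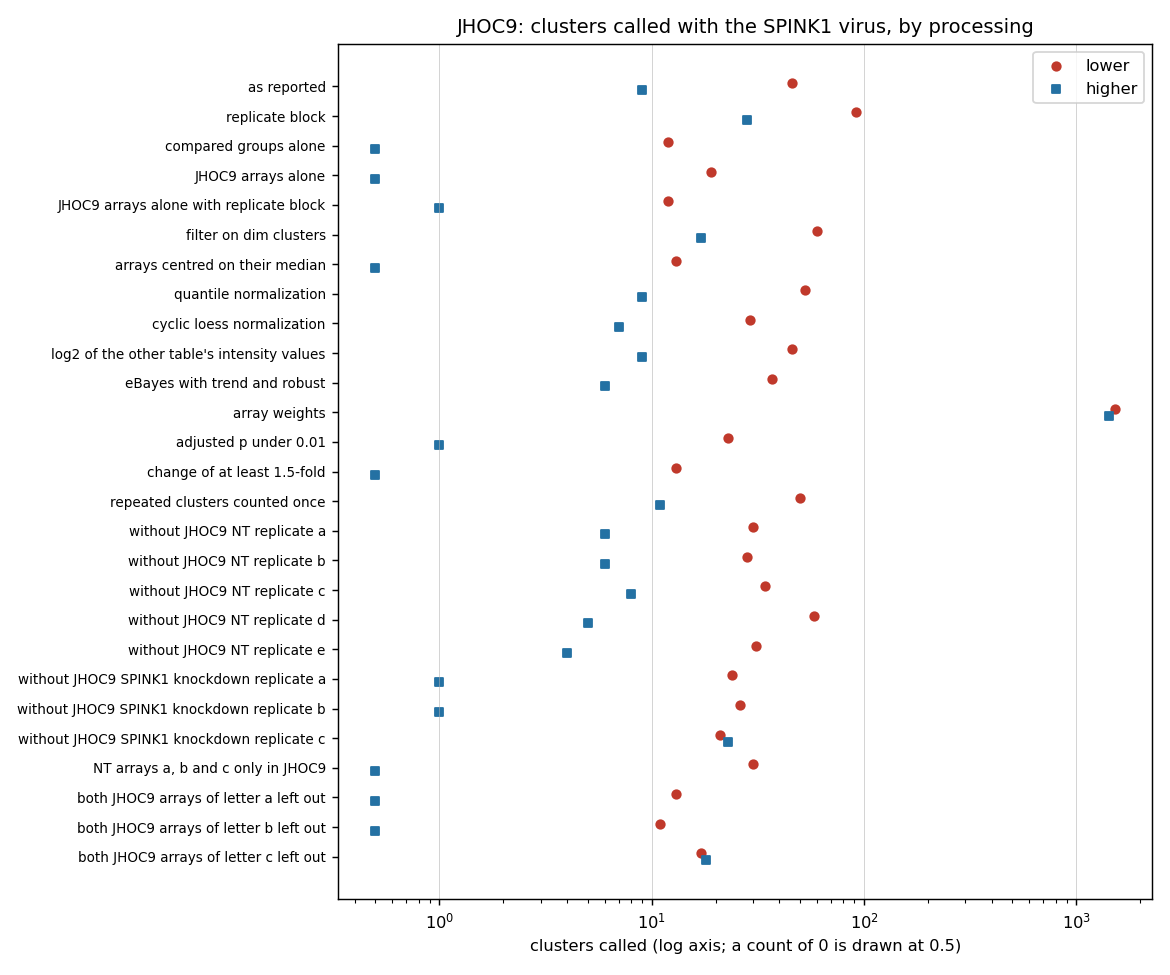
Clusters called lower (red circles) and higher (blue squares) with the SPINK1 virus in JHOC9 (horizontal, log axis, with 0 drawn at 0.5) under each processing setting (vertical). As reported, 46 were lower and 9 higher, and most settings gave more falls than rises, except without knockdown replicate c and without both arrays of letter c.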

How the data were processed

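Total RNA (200 ng) was labelled with biotin and hybridised to GeneChip Human Transcriptome Array 2.0 arrays, per the labels' protocols. RMA is named in the submitters' processing notes, with software, annotation and genome build not given in the sources used here. It is meant to bring arrays to a common distribution, which would hide an overall shift in RNA content. The array medians of the log2 signal still differed, from 4.78 to 4.95 over the 22 arrays. The deposited log2 values equal the log2 of the authors' deposited intensity values minus each cluster's median over the 22 arrays, within 2.06e-06. Levels are the log2 of those intensities.

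All 22 arrays entered 1 limma 3.58.1 model (R 4.3.3) with 6 group means, with moderated two-sided tests and p-values adjusted by Benjamini-Hochberg over 65526 clusters, called under 0.05, with 16 residual degrees of freedom. The letter block was fitted within each line. The same-lettered correlations all exceeded 0.1, so its counts are printed beside the results, but knockdown replicate c correlated more with NT replicate d (0.435), so the pairing is uncertain. Alternatives were other array sets, normalizations, filters, eBayes settings, array weights and thresholds, and those that leave out a whole letter or keep only NT arrays a, b and c were chosen after seeing the data. The fit was also run on simulated data with independent errors, no letter effect and no shift of whole arrays. That run therefore cannot show how such effects bear on the calls reported here. Named clusters are the 2 largest falls and 2 largest rises with a call and no overlap with NT. The files pair no IDs with genes, so planned gene lists were not analysed here. A chromosome code is the pair of characters that follows TC in an ID. The comparison, lists and tests were chosen with earlier results of these data known.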

Additional observations from a re-analysis of the deposited data

Results flagged for a closer look

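TC19000416.hg.1 fell less in JHOC9 than in JHOC5, by 0.77 on the log2 scale (JHOC9 minus JHOC5) past limma's test of the difference. Among the clusters called in JHOC9, 27 differed between the lines by the same test, 25 of them with the larger change in JHOC5, as for 806 of all 813 clusters with such a difference. Serum content and line differ together, so they cannot be told apart here. The 4 named clusters' NT arrays in both lines and the JHOC9 NT array medians held no array far from the others in the 9 groups examined.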

How the results depend on the processing

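The 55 calls in JHOC9 were 120 with the replicate block, 12 when only the compared groups were fitted, 19 with JHOC9 arrays alone and 13 with these and the block. They were 13 with arrays centred on their median, 36 after cyclic loess, 2948 with array weights, 24 at an adjusted p under 0.01 and 13 with a 1.5-fold minimum change. Settings chosen after seeing the data gave 30 with NT arrays a, b and c only, and 13, 11 and 35 with both arrays of letter a, b or c left out. Without single arrays the count ranged from 25 to 63. The 49 calls shared with JHOC5 were 90 with the block, 17 with separate fits, 13 with median centring, 796 with array weights, 23 and 13 at the stricter thresholds, 29 with NT arrays a, b and c only, 13, 11 and 18 with a letter left out, and 23 to 58 without single arrays. The 27 that differed between the lines were 48 with the block, 8 with median centring, 698 with array weights, 14 and 9 at the stricter thresholds, 17 with NT arrays a, b and c only, 7 and 7 with letter a or b left out, and 15 to 25 without single arrays. The dim-cluster filter, quantile normalization, the other table, trend with robust eBayes and counting repeats once kept all 3 counts within 1.5 times. Why the counts moved was not tested. Settings with fewer arrays also have fewer degrees of freedom. No named cluster changed sign in any setting. Stricter thresholds included, calls were lost in 3 settings for TC04001745.hg.1 (limma adjusted p of up to 0.0896), 11 for TC20000928.hg.1 and 15 for TC15002759.hg.1. Signal over background was not analysed here.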
